A study of Mus musculus with 16 samples.

Results

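Genes of superoxide and hydrogen peroxide handling were followed through mouse bone marrow: the catalase gene Cat, the superoxide dismutase genes Sod1, Sod2 and Sod3, the peroxidase genes Gpx1, Prdx2 and Prdx3, and the redox regulators Ucp2, Sesn1 and Txnip. They were chosen by symbol, and all 10 were found among the 57132 genes of the count table and among the 19152 genes that passed the filter on low counts. The libraries came from whole bone marrow of 2 genotypes, Nrf2-/- (KO) and C57BL/6 wild type (WT), each under 4 treatments with 2 libraries per group: BMX-001 with 5-FU, 5-FU, BMX-001, and PBS as the control. BMX-001 is a redox-active mimic of superoxide dismutase and was given at 0.5 mg/kg, first 24 h ahead of 5-FU and then every 3 days. 5-FU (5-fluorouracil, a chemotherapy drug that blocks thymidylate synthesis) followed at 20 mg/kg and was repeated on day 7, and the marrow collected on day 10 was sequenced. The WT mice were males of 8 to 10 weeks, whereas the labels give neither age nor sex for the KO mice, which were bred from Nrf2+/- parents of both sexes. The knockout was not restricted to a cell type. Genotype therefore cannot be told apart from any difference in age, sex or breeding between the colonies. The labels speak of marrow isolated in duplicate without saying that the duplicates were different animals, so the p-values measure the spread between these libraries, which may be technical.

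Total counts were 27305707 to 36588168 in KO libraries and 34387432 to 39909188 in WT libraries. Nfe2l2, which encodes NRF2 and was knocked out, had 6.48 to 16.7 CPM (counts scaled to library size, with TMM normalisation) in KO marrow and 102 to 122 CPM in WT marrow, with no overlap. The highest KO value was that of BMX-001 replicate 1, and the other 7 KO libraries reached 9.50 CPM. Markers of the red cell, granulocyte and B lineages were present in every library. KO BMX-001 replicate 1 stood apart from the rest, as it scored 76.2 on the leading principal component (43% of the variance), against scores of -20.9 to 7.4 for the other 15. Main results that include it are therefore given with all 16 libraries and again with the other 15. Fold changes are log2 values from edgeR's quasi-likelihood test with their standard error (SE), and "called" means past 0.05 after Benjamini-Hochberg adjustment over every gene tested.

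Superoxide leaks from the respiratory chain and is made on purpose by the NADPH oxidase of phagocytes. Superoxide dismutases turn it into hydrogen peroxide, which catalase, glutathione peroxidases and peroxiredoxins then remove, the last of these with electrons passed on by thioredoxin. In marrow, red cell precursors carry large amounts of several of these enzymes, and haemoglobin itself gives rise to superoxide as it oxidises. NRF2 is the transcription factor that drives many genes of the thioredoxin and glutathione systems through the antioxidant response element.

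The genes differed widely in level, and per length Gpx1 and Prdx2 led. In WT marrow without 5-FU (PBS and BMX-001 groups, n = 4), Gpx1, whose selenoprotein reduces peroxide with glutathione, stood highest at 1644 ± 205 CPM per kb of exon (SD). Prdx2, the peroxiredoxin of red cells, followed at 342 ± 22.5 CPM per kb, and Ucp2, a carrier of the mitochondrial inner membrane, at 281 ± 13.3 CPM per kb. Cat stood at 185 ± 27.3 CPM per kb and Txnip, which binds and inhibits thioredoxin, at 134 ± 41.1 CPM per kb, and the libraries of these neighbours overlapped. Below them came the mitochondrial peroxiredoxin gene Prdx3 at 88.3 ± 3.91 CPM per kb and Sod1, the copper and zinc enzyme of the cytosol, at 45.3 ± 2.31 CPM per kb. Sesn1, a sestrin known as a p53 target and a brake on mTORC1, had 16.5 ± 0.476 CPM per kb. Sod2, the manganese enzyme of mitochondria, had 5.90 ± 0.043 CPM per kb, and Sod3, the secreted enzyme, only 0.0931 ± 0.0387 CPM per kb. Apart from Cat and Txnip, each gene's lowest library lay above the highest library of the next gene in this order. Lengths came from an older annotation (GENCODE M21), and the order would move with the isoforms expressed. Exons of Prdx2 overlap Junb and Rnaseh2a, those of Ucp2 overlap Dnajb13 and those of Txnip overlap Gm15441, all on the opposite strand, and whether the counting used strand is not given in the sources used here.

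**Figure D1:**
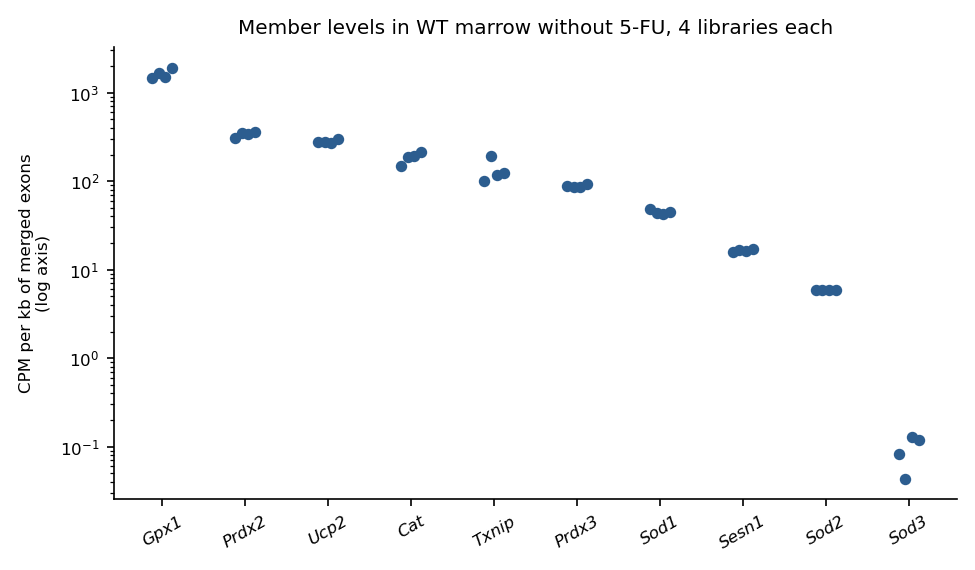
Levels of the 10 genes in WT marrow without 5-FU as CPM per kb of merged exons on a log axis, 1 point per library and 4 libraries per gene. Gpx1 stood highest at 1644 CPM per kb on average and Sod3 lowest at 0.0931, and only Cat and Txnip overlap as neighbours.

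Cat, Ucp2 and Sesn1 were the members called in any comparison of all 16 libraries, so their promoters are shown, each as the 300 bases around an annotated start from RefSeq (GRCm38.p6), 5′ to 3′ on the strand of the gene. The stretches lie at chr2:103485104-103485403 on the minus strand for Cat, chr7:100493108-100493407 on the plus strand for Ucp2 and chr10:41810324-41810623 on the plus strand for the first of 2 listed starts of Sesn1. Capitals mark the letters searched on both strands: the antioxidant response element core TGACNNNGC, the FoxO site GTAAACA, the GATA site AGATAA, the CCAAT box and the GC box GGGCGG.
Cat: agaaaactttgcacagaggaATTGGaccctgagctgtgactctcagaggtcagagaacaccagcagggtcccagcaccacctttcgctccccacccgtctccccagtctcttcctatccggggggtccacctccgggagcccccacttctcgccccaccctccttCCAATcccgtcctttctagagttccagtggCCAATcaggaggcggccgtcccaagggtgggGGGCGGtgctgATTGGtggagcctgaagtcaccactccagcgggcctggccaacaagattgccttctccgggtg
Ucp2: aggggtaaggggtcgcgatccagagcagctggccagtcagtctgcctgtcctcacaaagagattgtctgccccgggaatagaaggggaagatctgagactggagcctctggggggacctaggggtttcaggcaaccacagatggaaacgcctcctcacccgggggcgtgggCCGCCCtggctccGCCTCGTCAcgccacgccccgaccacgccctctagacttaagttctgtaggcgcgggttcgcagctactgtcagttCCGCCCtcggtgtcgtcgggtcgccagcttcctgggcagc
Sesn1: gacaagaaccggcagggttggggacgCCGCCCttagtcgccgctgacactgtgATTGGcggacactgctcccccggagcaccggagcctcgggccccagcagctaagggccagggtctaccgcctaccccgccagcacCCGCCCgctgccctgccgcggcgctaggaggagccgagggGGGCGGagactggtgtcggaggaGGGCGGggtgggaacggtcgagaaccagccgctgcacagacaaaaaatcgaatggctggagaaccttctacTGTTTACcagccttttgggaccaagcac
The Cat stretch held 4 CCAAT boxes and 1 GC box, and the letters of the response element core were not in this window. Ucp2 held 1 such core and 2 GC boxes, and Sesn1 held 1 FoxO site, 1 CCAAT box and 4 GC boxes. Of the 9 members with an entry, Sod1 was the other one with a response element core, and Txnip the other one with a FoxO site. These letters are common: of 32851 mouse promoter stretches of this length, 12.4% held the response element core, 3.65% the FoxO site, 11.2% the GATA site, 37.4% a CCAAT box and 35.7% a GC box. A match is a description of letters, not a bound site.

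Cat (ENSMUSG00000027187.11), the gene for the peroxisomal enzyme that splits hydrogen peroxide, was lower in KO marrow, and over the 4 treatments it differed by genotype more than the other 9 members. KO marrow had 165 and 171 CPM with BMX-001 and 5-FU, 160.5 and 177 CPM with 5-FU, 283 and 303 CPM with BMX-001, and 301 and 316 CPM with PBS. WT marrow had 337 and 351 CPM with BMX-001 and 5-FU, 283 and 279 CPM with 5-FU, 505 and 554 CPM with BMX-001, and 385 and 492 CPM with PBS. Under each treatment both KO libraries lay below both WT libraries, which held under all 4 treatments for 1 of the 10 members and for 0.647% of all genes. Over all treatments the genotypes overlapped, in that KO marrow without 5-FU reached the level of WT marrow given 5-FU. Cat averaged 234 ± 71.4 CPM in KO marrow and 398 ± 106 CPM in WT marrow (SD, n = 8 each). The log2 fold change over the 4 treatments was -0.78 ± 0.06 (SE, edgeR, adjusted p = 5.8e-05). It was the 1 member of 10 called in this comparison, in which 0.178% of all genes were called. The KO level was 41.2% below the WT level. Without the deviating library the value was -0.77 ± 0.05 (adjusted p = 4.02e-07), and it stayed between -0.82 and -0.74 and called whichever library was left out.

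The genotype difference in Cat was present with and without 5-FU. Without 5-FU, KO marrow had 300.4 ± 13.6 CPM and WT marrow 484 ± 71.3 CPM (SD, n = 4 each), with no overlap (-0.68 ± 0.09, adjusted p = 0.00971 in edgeR). That was the 1 member called, beside 0.0574% of all genes, and every KO library lay below every WT library for 2.84% of all genes. This call was lost without either WT BMX-001 library, the highest of their group (adjusted p = 0.0692 and 0.102), and when the 4 groups were fitted alone (adjusted p = 0.518). With 15 libraries it was -0.66 ± 0.08 (adjusted p = 0.000878). Given 5-FU, KO marrow had 168 ± 7.26 CPM and WT marrow 313 ± 36.8 CPM (SD, n = 4 each), again with no overlap (-0.89 ± 0.09, adjusted p = 0.000843). It was the 1 member called there beside 0.0992% of all genes, with 4.02% of all genes lower in every KO library, and the call held whichever library was left out. Within single treatments the fold change was -1.04 ± 0.12 under both drugs (adjusted p = 0.00821), -0.74 ± 0.12 under 5-FU (adjusted p = 0.155), -0.86 ± 0.12 under BMX-001 (adjusted p = 0.0568) and -0.51 ± 0.12 under PBS (adjusted p = 0.671). The call under both drugs was the only one among the 40 tests of a member within a treatment, with 0.0157% of all genes called under both drugs and under 5-FU, 0.0104% under BMX-001 and 0.0261% under PBS. It was lost without any of its own 4 libraries (adjusted p up to 0.237). With 15 libraries Cat was also called under 5-FU (adjusted p = 0.00661) and under BMX-001 (adjusted p = 0.0357), where 0.142% and 0.0203% of all genes were called, and not under PBS (adjusted p = 0.0688). These comparisons share libraries, so they are not independent of each other.

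Cat also fell after 5-FU in both genotypes. In KO marrow it was 168 ± 7.26 CPM with 5-FU and 300.4 ± 13.6 CPM without (SD, n = 4 each), 44.0% lower and with no overlap (-0.84 ± 0.09, adjusted p = 0.000443 in edgeR). In WT marrow it was 313 ± 36.8 CPM with 5-FU and 484 ± 71.3 CPM without (SD, n = 4 each), 35.4% lower and with no overlap (-0.63 ± 0.09, adjusted p = 0.0387). Every library given 5-FU lay below every library without it for 4.43% of all genes in KO and 4.49% in WT. In bulk marrow, fewer cells of a type and less RNA per cell cannot be told apart. The KO call held whichever library was left out, at -0.86 ± 0.08 (adjusted p = 2.08e-05) with 15 libraries. In WT 0.0574% of all genes and 1 member were called, and the Cat call was lost in 13 of the 16 fits that each left out 1 library, with adjusted p-values up to 0.365. It held without either KO BMX-001 library or without WT PBS replicate 1, with an adjusted p of 0.000887 without the deviating library. The difference between the genotypes in the 5-FU effect was -0.21 with a 95% interval of -0.47 to 0.06 (adjusted p = 0.691), and -0.23 with one of -0.45 to -0.0045 with 15 libraries (adjusted p = 0.708), so a larger fall in KO marrow was not shown. In this test 0% of all genes were called by edgeR, while 1300 genes had an unadjusted p under 0.05 and DESeq2 called 5 genes. Without KO BMX-001 replicate 2, KO BMX-001 is only the deviating library. The differences in that fit, which rest on this library, were 0.47 ± 0.10 for Sod1, 0.51 ± 0.09 for Sod2 and -0.32 ± 0.08 for Sesn1.

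**Figure D2:**
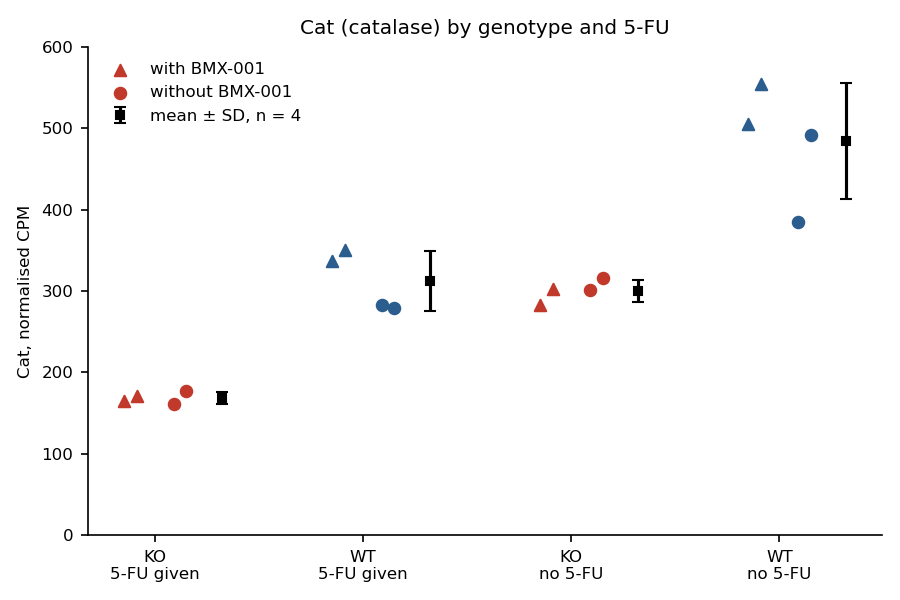
Cat in normalised CPM by genotype and 5-FU, 1 point per library, with triangles for libraries given BMX-001, circles for those without it, and squares with bars for the mean ± SD of 4 libraries. KO marrow lay at 160.5 to 177 CPM with 5-FU against 279 to 351 CPM in WT marrow, and at 283 to 316 CPM without 5-FU against 385 to 554 CPM in WT marrow.

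In KO marrow 3 of the 10 members were lower after 5-FU, where 1.74% of all genes were lower and 1.9% were called in either direction. Ucp2 (ENSMUSG00000033685.14, chromosome 7) was the most abundant of the 3. With 5-FU, KO marrow had 1295 and 1325 CPM of Ucp2 under BMX-001 and 1276 and 1361 CPM alone, against 1489 and 1978 CPM with BMX-001 and 2130 and 2222 CPM with PBS. The groups did not overlap, and the lowest library without 5-FU was the deviating one. The fold change was -0.56 ± 0.10 (SE, edgeR, adjusted p = 0.0105) and -0.66 ± 0.07 with 15 libraries (adjusted p = 5.15e-05). With all libraries the call was lost without KO 5-FU replicate 1 or without either KO library of BMX-001 with 5-FU (adjusted p = 0.0631 to 0.0712), and when the 4 KO groups were fitted alone (adjusted p = 0.157).

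In WT marrow Ucp2 had 1488 and 1613 CPM under BMX-001 and 5-FU and 1472 and 1307 CPM under 5-FU, against 1875 and 2090.2 CPM with BMX-001 and 1916 and 1961 CPM with PBS. Every library given 5-FU lay below every library without it. The fold change of -0.42 ± 0.10 was not called with 16 libraries (edgeR, adjusted p = 0.183) and was called with 15 (-0.42 ± 0.07, adjusted p = 0.00552), where 1.94% of all genes were called. Between the genotypes Ucp2 was not called, at 1635 ± 404 CPM in KO marrow and 1715 ± 281 CPM in WT marrow (SD, n = 8 each; -0.09 with a 95% interval of -0.24 to 0.07, and -0.04 with one of -0.15 to 0.07 with 15 libraries).

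Gpx1 was not called after 5-FU with 16 libraries, though the KO sets did not overlap. KO marrow had 1473 and 1539 CPM under BMX-001 and 5-FU and 1687 and 1535 CPM under 5-FU, against 1976 and 2219 CPM with BMX-001 and 1924 and 2760.3 CPM with PBS. Every KO library given 5-FU was below every one without it. The fold change was -0.51 ± 0.12 (SE, edgeR, adjusted p = 0.0613), and -0.55 ± 0.12 with 15 libraries (adjusted p = 0.0173), where 3.49% of all genes were called. In WT marrow it was 2132 and 1937 CPM under BMX-001 and 5-FU and 1645 and 1476 CPM under 5-FU, against 2177 and 2772 CPM with BMX-001 and 2123 and 2403 CPM with PBS. These WT sets overlapped through 1 library of the combination (-0.41 ± 0.12, adjusted p = 0.291).

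The peroxiredoxin genes gave no call with 16 or with 15 libraries. Prdx2 had 774 to 973 CPM in KO marrow given 5-FU and 913 to 1198 CPM in KO marrow without it, which overlapped (-0.28 ± 0.10, edgeR, adjusted p = 0.208, and -0.31 ± 0.09 with 15 libraries, adjusted p = 0.092). In WT marrow it had 838 to 1147 CPM with 5-FU and 949 to 1111 CPM without (-0.14 ± 0.10, adjusted p = 0.709). Prdx3 had 112 to 143 CPM in KO marrow given 5-FU, 81.6 to 134 CPM in KO marrow without it, 125 to 144 CPM in WT marrow given 5-FU and 126 to 139 CPM in WT marrow without it. Its lowest value, 81.6 CPM, was that of the deviating library. Averaged over treatments, KO differed from WT by -0.14 with a 95% interval of -0.31 to 0.03 for Prdx3 and by -0.09 with one of -0.24 to 0.07 for Prdx2. With 15 libraries these were -0.08 (-0.20 to 0.03) for Prdx3 and -0.07 (-0.20 to 0.07) for Prdx2.

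Sod1 and Sod2, the intracellular dismutases, were not called in any comparison with 16 or with 15 libraries. Sod1 had 140.3 to 176 CPM in KO marrow given 5-FU and 90.3 to 172 CPM in KO marrow without it, against 150.02 to 178 CPM in WT marrow given 5-FU and 171 to 192 CPM in WT marrow without it. The KO to WT difference was -0.21 ± 0.09 (SE, edgeR, adjusted p = 0.334) and -0.14 ± 0.05 with 15 libraries (adjusted p = 0.189). Sod2 lay between 54.7 and 64.3 CPM in every library other than the deviating one, which had 30.9 CPM. The KO to WT difference in Sod2 was -0.12 with a 95% interval of -0.33 to 0.08, and -0.04 with one of -0.13 to 0.06 in the 15-library fit. Leaving out KO BMX-001 replicate 2, whose group then rests on the deviating library, gave -0.32 ± 0.05 for Sod1 and -0.25 ± 0.05 for Sod2.

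Sod3 was close to the limit of detection, with 3 to 22 counts per library. KO marrow had 9 and 17 counts under BMX-001 and 5-FU and 22 and 21 under 5-FU, against 4 and 9 with BMX-001 and 3 and 8 with PBS. WT marrow had 11 and 14 counts under BMX-001 and 5-FU and 14 and 12 under 5-FU, against 17 and 16 with BMX-001 and 11 and 6 with PBS. In CPM the 4 KO libraries given 5-FU, at 0.266 to 0.634, lay above the 4 without it, at 0.0908 to 0.26, by a narrow margin (1.34 ± 0.38, edgeR, adjusted p = 0.104, and 1.15 ± 0.41 with 15 libraries, adjusted p = 0.167). Sod3 was the 1 member of 10 with every KO library given 5-FU above every KO library without it, an arrangement that 3.49% of all genes had. WT marrow had 0.272 to 0.395 CPM with 5-FU and 0.163 to 0.482 CPM without (0.01 ± 0.33). Markers of stromal cells moved with the KO values: the summed level of 10 markers was 396 to 917 CPM in KO marrow given 5-FU, 208 to 568.4 CPM in KO marrow without it, and 470 to 746 CPM over all WT libraries. None of the 10 markers was at 0 in these libraries, and their part in the Sod3 values was not tested.

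Sesn1 (ENSMUSG00000038332.14, chromosome 10) was the third member called after 5-FU in KO marrow. With 5-FU, KO marrow had 46.3 and 53.5 CPM under BMX-001 and 48.0 and 51.4 CPM alone, against 75.2 and 61.1 CPM with BMX-001 and 62.5 and 61.1 CPM with PBS. The sets did not overlap, and the highest value was that of the deviating library. The fold change was -0.38 ± 0.08 (SE, edgeR, adjusted p = 0.0199), and -0.30 ± 0.06 with 15 libraries (adjusted p = 0.00907). It was lost without any of 6 single libraries: both of KO PBS, both of KO 5-FU, KO BMX-001 with 5-FU replicate 1 and WT BMX-001 replicate 2 (adjusted p = 0.0507 to 0.155), and when the 4 KO groups were fitted alone (adjusted p = 0.323). In WT marrow Sesn1 had 66.2 and 65.7 CPM under BMX-001 and 5-FU and 55.0 and 55.4 CPM under 5-FU, against 65.4 and 67.6 CPM with BMX-001 and 63.0 and 66.1 CPM with PBS. Here the WT libraries given 5-FU alone were lowest and those given both drugs lay with the libraries without 5-FU (-0.12 ± 0.08, adjusted p = 0.664). Given 5-FU, all 4 KO libraries lay below all 4 WT libraries (-0.28 ± 0.08, adjusted p = 0.296), and this was called with 15 libraries (-0.28 ± 0.06, adjusted p = 0.0213), beside 1.11% of all genes. The KO to WT difference over all treatments was also called with 15 libraries (-0.19 ± 0.04, adjusted p = 0.0381), beside 1.39% of all genes. Of 20 p53 targets that were listed, 2 were higher after 5-FU in KO marrow with 16 libraries and none was lower. In this comparison 1.9% of all genes were called in either direction. Eda2r, a death receptor gene, had 1.39 to 1.81 CPM with 5-FU and 0.0335 to 0.394 CPM without in KO marrow (2.65 ± 0.42, edgeR, adjusted p = 0.00476, and 2.26 ± 0.35 with 15 libraries). Phlda3, a repressor of AKT signalling, had 1.86 to 3.74 CPM with 5-FU and 0.435 to 1.54 CPM without (1.51 ± 0.30, adjusted p = 0.019, and 1.33 ± 0.30 with 15 libraries). The rise of Eda2r was not particular to KO marrow. In WT marrow it had 0.677 to 1.63 CPM with 5-FU and 0.0555 to 0.217 CPM without, and was called (3.06 ± 0.46, edgeR, adjusted p = 0.0387). With 15 libraries the WT value of Eda2r was 3.06 ± 0.35. Phlda3 had 1.02 to 2.14 CPM with 5-FU and 0.462 to 1.13 CPM without in WT marrow, which overlapped.

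Txnip gave no call. It had 288 to 378 CPM in KO marrow given 5-FU and 360.4 to 550.1 CPM in KO marrow without it (-0.35 ± 0.18, edgeR, adjusted p = 0.337, and -0.21 ± 0.22 with 15 libraries, adjusted p = 0.715). In WT marrow it had 299 to 349 CPM with 5-FU and 315 to 605 CPM without (-0.39 ± 0.18, adjusted p = 0.529). Replicates lay farthest apart in WT PBS, at 315 and 605 CPM, and close together in WT BMX-001, at 368 and 383 CPM.

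**Figure D3:**
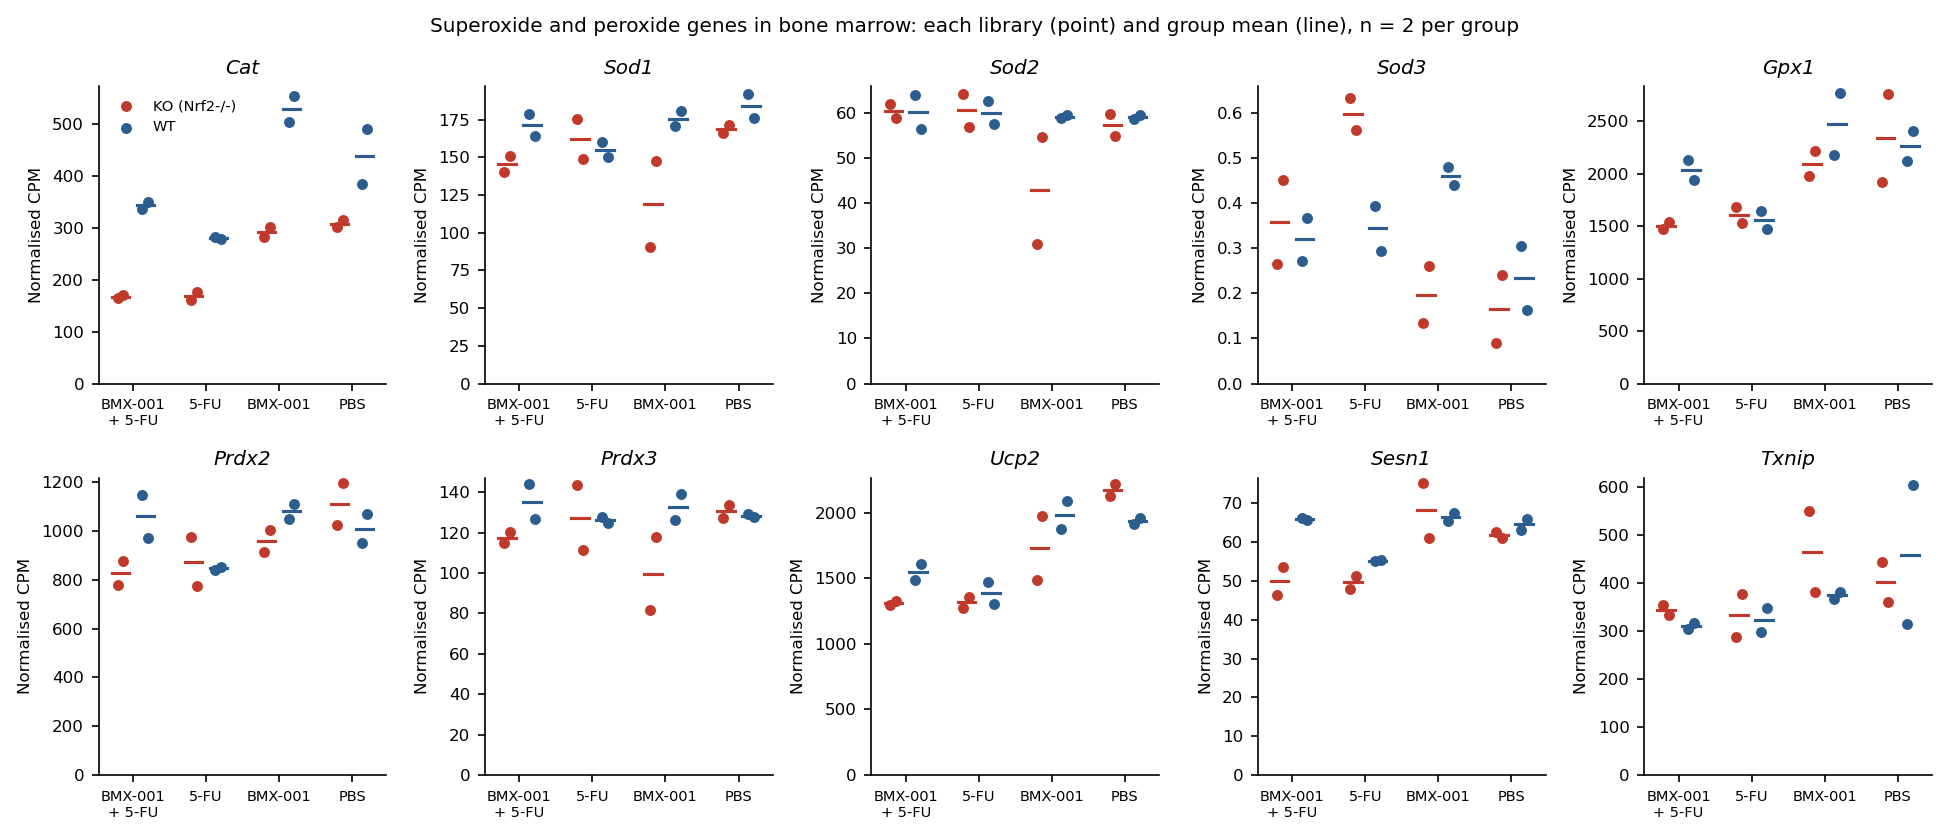
Normalised CPM of the 10 genes in each group, 1 point per library and a line at the mean of 2 libraries, with KO left of WT and treatments in the order BMX-001 with 5-FU, 5-FU, BMX-001 and PBS. Cat separated the genotypes under every treatment, while Sod2 lay at 54.7 to 64.3 CPM outside the deviating KO BMX-001 library.

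BMX-001 gave no call among the 10 genes with 16 or with 15 libraries. Against PBS, over both genotypes, 0 members were called and 0% of all genes by edgeR, while 4026 genes had an unadjusted p under 0.05 and DESeq2 called 718. Without the deviating library edgeR again called 0%. Cat had 283 and 303 CPM in KO BMX-001 libraries against 301 and 316 CPM in KO PBS libraries, and 505 and 554 CPM in WT BMX-001 libraries against 385 and 492 CPM in WT PBS libraries. The fold change for Cat was 0.10 with a 95% interval of -0.08 to 0.28. For Sod1 it was -0.29 with an interval of -0.55 to -0.02 (adjusted p = 0.212), and -0.13 with one of -0.28 to 0.02 without the deviating library. For Sod2 it was -0.21 with an interval of -0.50 to 0.08, and -0.03 with one of -0.18 to 0.11 without that library. Without KO BMX-001 replicate 2, the deviating library alone stands for KO BMX-001. The fold changes of that fit, which rest on this library, were -0.50 for Sod1, -0.46 for Sod2, -0.33 for Prdx3 and -0.27 for Ucp2.

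Added to 5-FU, BMX-001 again gave 0 called members in either genotype, beside 0% of all genes in each by edgeR (0.00508% in KO with 15 libraries). Unadjusted, 499 genes in KO and 753 in WT were under 0.05, and DESeq2 called 6 and 0. In KO marrow Cat stood at 165 and 171 CPM with both drugs and 160.5 and 177 CPM with 5-FU alone (-0.01, 95% interval -0.27 to 0.25). In WT marrow Cat had 337 and 351 CPM with both drugs against 283 and 279 CPM with 5-FU alone (0.29 ± 0.12, edgeR, unadjusted p = 0.0313, adjusted p = 0.998). Sesn1, Gpx1 and Prdx2 had values of like size in WT marrow, at 0.26 ± 0.11, 0.38 ± 0.18 and 0.32 ± 0.15, each with an adjusted p of 0.998. Both libraries given both drugs lay above both given 5-FU alone for 6 of the 10 members (these 4, Sod1 and Ucp2), an arrangement that 22.3% of all genes had. Summed erythroid markers, haemoglobin genes included, had 73332.5 to 78203 CPM in WT marrow with both drugs and 58436 to 58685 CPM with 5-FU alone. In KO marrow these sums were 72694 to 77181 CPM and 64341 to 71299 CPM. The part of these markers in the WT values was not tested. With 2 libraries a group and no call, a difference from 5-FU alone was not shown, and the intervals reach 0.55 for Cat and 0.76 for Gpx1.

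**Figure D4:**
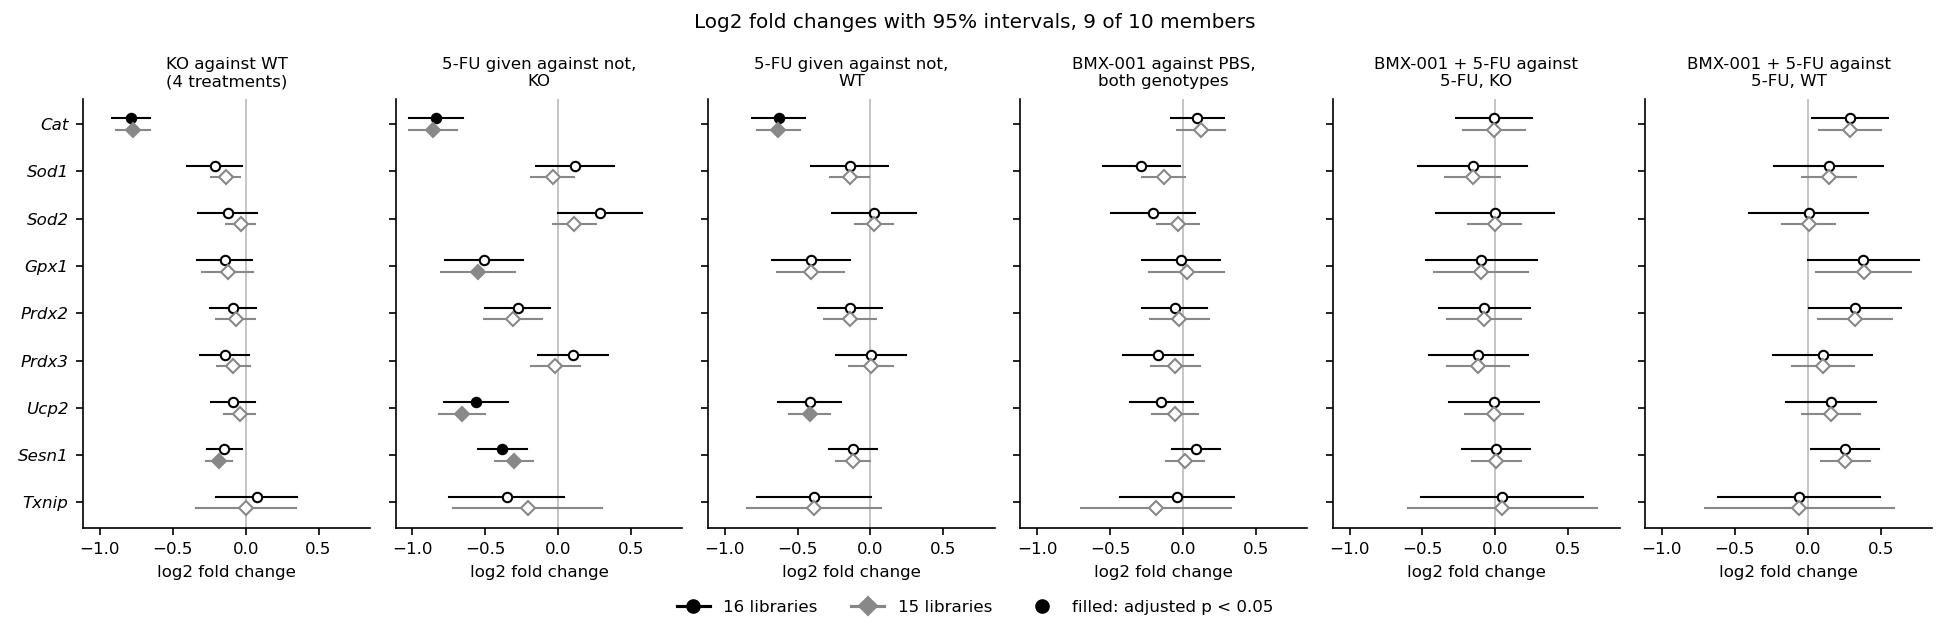
Log2 fold changes with 95% intervals for the members other than Sod3 in 6 comparisons, with circles for the fit to 16 libraries, diamonds for the fit to 15 libraries, and filled symbols at an adjusted p under 0.05. Cat lay at -0.78 between the genotypes and at -0.84 and -0.63 after 5-FU in KO and WT marrow, and no symbol of the 3 BMX-001 comparisons is filled.

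Among 26 other genes of superoxide and peroxide removal, 2 were lower in KO marrow over the 4 treatments and none was higher. In this comparison 0.178% of all genes were called. Srxn1, the sulfiredoxin that repairs overoxidised peroxiredoxins, had 8.49 ± 2.18 CPM in KO marrow and 17.9 ± 3.34 CPM in WT marrow (SD, n = 8 each; -1.09 ± 0.11, edgeR, adjusted p = 0.000587, and -1.02 ± 0.09 with 15 libraries). Txnrd1, the cytosolic thioredoxin reductase, had 73.1 ± 12.0 CPM in KO marrow and 93.4 ± 5.34 CPM in WT marrow (-0.37 ± 0.06, adjusted p = 0.033, and -0.34 ± 0.05 with 15 libraries). Both stand on the list of NRF2 targets as well, of which 5 of 23 were lower and none higher, the others being Pir, Nqo1 and Gclc. The median over the 26 genes was -0.05, against -0.14 for the 10 members and 0.00 for all genes. Prdx1, the cytosolic peroxiredoxin, was lower with 15 libraries only (-0.22 ± 0.05, adjusted p = 0.0266), at 89.2 to 142 CPM in KO marrow and 127 to 154 CPM in WT marrow over all 16 libraries.

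After 5-FU in KO marrow 1 of the 26 was lower and none higher, where 1.74% of all genes were lower. Txnrd2, the mitochondrial thioredoxin reductase, had 74.4 ± 4.14 CPM with 5-FU and 98.5 ± 6.31 CPM without (SD, n = 4 each; -0.40 ± 0.07, edgeR, adjusted p = 0.00927, and -0.39 ± 0.07 with 15 libraries). The median of the 26 was 0.10, against -0.32 for the 10 members and 0.01 for all genes. In WT marrow none of the 26 was called after 5-FU with 16 libraries, and Msra, a methionine sulfoxide reductase gene, was the 1 called with 15. Of all genes, 0.0574% and 1.94% were called there. Of 12 genes that make superoxide or peroxide, among them the subunits of the phagocyte NADPH oxidase, none was called in any comparison with 16 libraries. With 15 libraries Maoa, a monoamine oxidase that releases peroxide, was higher after 5-FU in KO marrow, beside 3.49% of all genes called. Cyba, the small membrane subunit of the NADPH oxidase, was lower after 5-FU in WT marrow, beside 1.94% of all genes called.

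Red cell markers moved with the 5-FU results. In KO marrow 15 of 25 erythroid markers were lower after 5-FU and none higher, with a median of -0.59, and in WT marrow 1 was lower, with a median of -0.31. With 15 libraries the counts were 20 in KO and 13 in WT. Of all genes, 1.9% in KO and 0.0574% in WT were called with 16 libraries, and 3.49% and 1.94% with 15. The summed level of the markers without the haemoglobin genes was 17712 to 19457 CPM in KO marrow given 5-FU and 26106 to 31228 CPM in KO marrow without it. In WT marrow it was 19844 to 22702 CPM given 5-FU and 22880 to 29198 CPM without. With the haemoglobin genes included the WT sums overlapped, at 58436 to 78203 CPM given 5-FU and 72697 to 103202 CPM without. The KO sums with these genes still lay apart, at 64341 to 77181 CPM given 5-FU and 94201 to 107047 CPM without. No erythroid marker was at 0 in any library. The part of these markers in the lower values of Cat, Ucp2, Gpx1 and Sesn1 after 5-FU was not tested.

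Between the genotypes, cell markers moved in part with Cat. Without 5-FU and with the haemoglobin genes left out, the KO erythroid sums of 26106 to 31228 CPM overlapped the WT sums of 22880 to 29198 CPM. No erythroid marker was called between the genotypes with 16 libraries. Given 5-FU, the KO range of this sum, 17712 to 19457 CPM, lay below the WT range of 19844 to 22702 CPM. With the haemoglobin genes included these sums overlapped, at 64341 to 77181 CPM in KO and 58436 to 78203 CPM in WT marrow. With 15 libraries 9 of 25 markers were lower in KO given 5-FU, where 1.11% of all genes were called. The summed B lineage markers lay apart between the genotypes without 5-FU, at 1916 to 2247 CPM in KO marrow and 2743 to 5447 CPM in WT marrow. No single B lineage marker was called there with 16 or with 15 libraries. Over the 4 treatments Cd79a (-0.34) and Blk (-0.41) were called lower in KO with 15 libraries only, beside 1.39% of all genes. Given 5-FU the B lineage sums were 1668 to 5409 CPM in KO marrow and 2079 to 2677 CPM in WT marrow and overlapped. The KO sum of 5409 CPM was that of 5-FU replicate 1. The other KO libraries given 5-FU had 1668 to 2036 CPM, below this WT range. Of 16 monocyte and macrophage markers, 2 were lower in KO marrow over the 4 treatments, where 0.178% of all genes were called. Marco, a scavenger receptor gene of macrophages, had 0 to 0.543 CPM in KO marrow and 0.472 to 1.68 CPM in WT marrow (-3.78 ± 0.42, edgeR, adjusted p = 0.00244), and was also called given 5-FU (-3.05 ± 0.45, adjusted p = 0.0348). Its ranges overlapped and rest on few reads, at 0 to 18 counts per KO library and 17 to 68 per WT library. Cd5l, a secreted macrophage protein gene, had 9.70 to 26.8 CPM in KO marrow and 34.9 to 48.4 CPM in WT marrow (-0.85 ± 0.14, adjusted p = 0.0446, and -0.72 ± 0.05 with 15 libraries). The summed level of the 16 was 959 to 2481 CPM in KO marrow and 1752 to 2139.5 CPM in WT marrow and overlapped. The part of erythroid, B lineage and macrophage cells in the genotype difference in Cat was not tested.

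**Figure D5:**
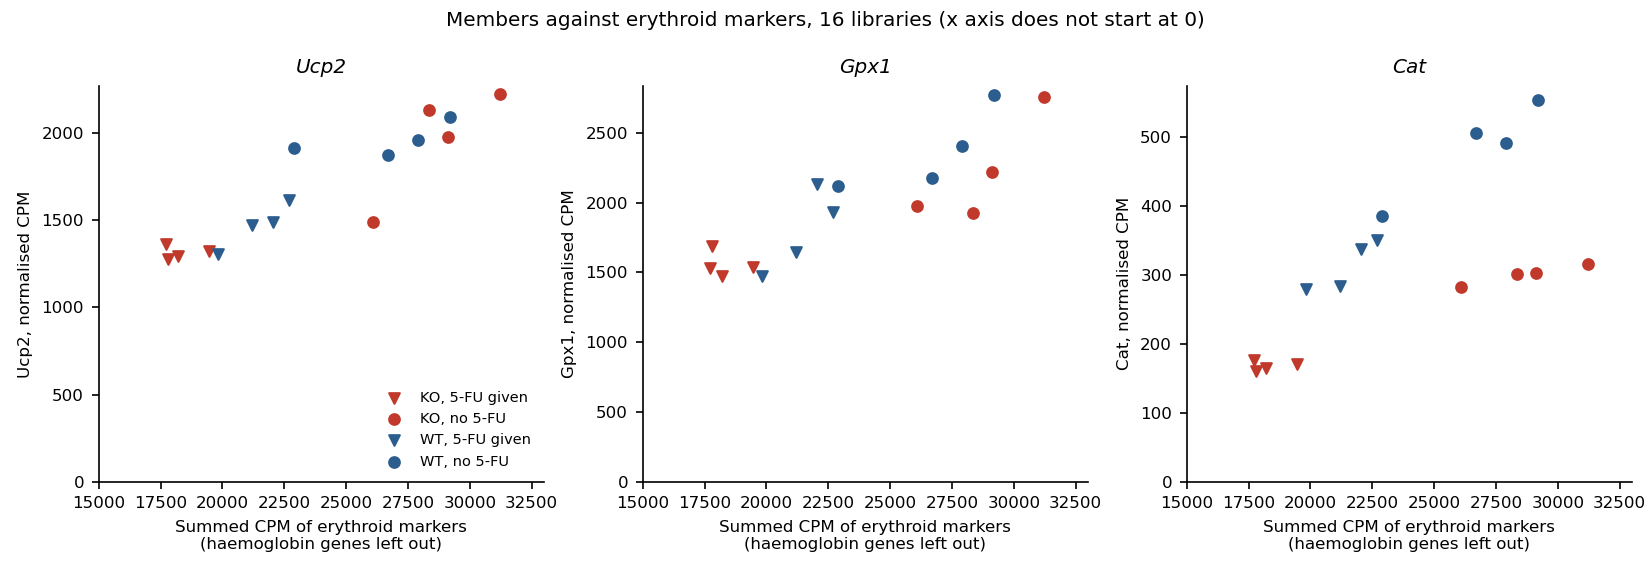
Normalised CPM of Ucp2, Gpx1 and Cat against the summed CPM of the erythroid markers without haemoglobin genes, 1 point per library, triangles for 5-FU given and circles for not given. For Ucp2 the 4 KO and the 4 WT libraries without 5-FU overlapped, at 1489 to 2222 and 1875 to 2090.2 CPM, while for Cat the 4 KO libraries without 5-FU lay at 283 to 316 CPM, below the 4 WT libraries without 5-FU at 385 to 554 CPM.

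Genes of like pattern over the 16 libraries differed between the members. Likeness was measured as the mean absolute difference between log2 CPM values, each centred on its gene's mean, over 9361 genes of moderate to high level, as a description of libraries that share their depth and composition. For Ucp2 the nearest gene was Slc4a1, which encodes the band 3 anion exchanger of red cells, at 0.06 against a median of 0.27 over all genes, followed by Acsl1 and Abhd4. Gpx1 was nearest to Abhd4, Pla2g16 and Mpp1, the last a red cell membrane protein gene, at 0.07 to 0.08. Prdx2 was nearest to a gene without a symbol in the annotation used, and then to Glrx5, which serves iron-sulphur cluster synthesis. The genes nearest to Cat were farther off, with Tifa, Ccdc92b and Vpreb3 at 0.18 to 0.20 against a median of 0.46. Vpreb3 is one of the listed B lineage markers. Sesn1 was nearest to Pcmtd2, Cyb5a and Fbxo9, at 0.06 to 0.07. The other members were nearest to Sdhc, Med19 and Snrpb for Sod1, Mut, Cct8 and Rad23b for Sod2, Gid8, Rbm43 and Kpna2 for Prdx3, Arl4c, Fem1c and Klf6 for Txnip, and Kitl, Nid1 and C4b for Sod3. The first neighbour was the same without the deviating library for Cat, Prdx2, Txnip and Sod3.

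Cat lies on chromosome 2, as does Nfe2l2, with 129 tested genes between them. Genes near a deleted locus are inherited with it. Of the 100 tested genes nearest to Cat none was called between KO and WT over the 4 treatments with 16 libraries, and 1 with 15. Of the 100 nearest to Nfe2l2, 2 were called with 16 libraries and 6 with 15, against 0.178% and 1.39% of all genes. On the whole of chromosome 2, 6 of 1293 tested genes were called, among them Nfe2l2, Cat and Srxn1. The part of linkage to Nfe2l2 in the lower Cat level was not tested.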

How the data were processed

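RNA-seq counts of 16 whole bone marrow libraries in 8 groups of 2 were used. The deposited table holds whole-number counts per Ensembl gene, made by the authors with featureCounts on GRCm39, per the submitters' processing notes, which also list Trim Galore 0.6.4, FastQC 0.12.1, Salmon 1.4.0 and DESeq2 1.38.3. Neither the aligner nor the use of strand is given in the sources used here. Reads shared with near-identical copies, or with genes on the other strand, can shift such counts.

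The filterByExpr filter on low counts kept 19152 genes. The groups were fitted together with edgeR 4.0.16 (TMM scaling, robust quasi-likelihood, 8 residual degrees of freedom) in R 4.3.3, and p-values were adjusted by Benjamini-Hochberg over all genes tested. Intervals are 95% intervals from that fit. The procedure was tested on simulated data with known changes. Alternatives were DESeq2 1.42.0, RLE scaling, no filter, the replicate number as a block, only the compared groups, and each library left out in turn. The fit to 15 libraries is one of the last kind and tested 19694 genes. CPM values use TMM library sizes. Nothing pairs same-numbered libraries by origin, and the block is therefore only an alternative.

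The 10 members and the gene lists were chosen with earlier results of these data known. All members are named, with called genes of the other lists (up to 4 per list and comparison by smallest p), the 3 genes nearest in pattern to each member, and Nfe2l2. One gene under this rule is not reported here. Symbols, exon lengths, gene order and promoters came from GENCODE M21 and RefSeq annotation of GRCm38.p6, an older build than that of the counts, and coordinates are given only for the promoters.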

Additional observations from a re-analysis of the deposited data

Results flagged for a closer look

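In 40 sets of 4 libraries (each member in KO or WT marrow, given 5-FU or not), 2 single libraries lay far from the other 3 by Dixon's criterion, about as many as chance gives at 1 in 20. Sesn1 had 75.2 CPM in KO BMX-001 replicate 1, against 61.1 to 62.5 CPM in the other KO libraries without 5-FU. It is the library that stands apart on the leading principal component. Prdx3 had 144.2 CPM in WT BMX-001 with 5-FU replicate 1, against 125 to 128 CPM in the other WT libraries given 5-FU.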

How the results depend on the processing

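Cat kept its negative sign between the genotypes and after 5-FU under every alternative run. Of the calls of single members, 35 were kept and 3 were lost under alternatives other than leaving a library out. The lost ones came from fitting only the compared groups: Cat without 5-FU (-0.67), Ucp2 after 5-FU in KO (-0.56) and Sesn1 after 5-FU in KO (-0.38). Why these calls were lost was not tested. With 1 library left out 100 calls were kept and 28 lost. Among values not called, 19 became called under the first kind of alternative and 30 when a library was left out. The Cat value for BMX-001 alone changed sign to -0.0067 without WT PBS replicate 1, the lowest of its leave-one-out values, of which 0.19 was the highest.

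Counts over all genes moved widely, and the cause was not tested. For KO against WT over the 4 treatments, 34 genes were called, 338 by DESeq2 and 879 with no filter. Without 5-FU it was 11, against 120 by DESeq2, 1016 with no filter and 1 with only the compared groups. Given 5-FU it was 19, against 177, 310 and 259 under those settings. After 5-FU in KO it was 364, against 864, 1790 and 64, and in WT 11, against 213, 430 and 425. For the genotype difference in the 5-FU effect it was 0, against 5 by DESeq2 and 202 with no filter. For BMX-001 alone it was 0, against 718 and 1996. For BMX-001 added to 5-FU it was 0 in each genotype, against 6, 137 and 5 in KO under DESeq2, no filter and only the compared groups, and 36 with no filter and 1 with only the compared groups in WT.

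Members called without 5-FU between the genotypes were 1, and 2 with no filter and 0 with only the compared groups. Given 5-FU they were 1, and 2 with only the compared groups. After 5-FU in KO they were 3, and 6 with no filter and 1 with only the compared groups. After 5-FU in WT they were 1, and 2 by DESeq2, 4 with no filter and 3 with only the compared groups. Within treatments 1 was called, and 2 with RLE scaling, 4 by DESeq2 and 6 with no filter.

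The replicate numbers did not pair the libraries: over 28 pairs of groups the correlation of same-numbered deviations ran between -0.56 and 0.40, with 9 over 0.1. With the replicate block, 6 genes were called between the genotypes without 5-FU, 10 given 5-FU, and 2 members within treatments, Cat under BMX-001 being added. The block changed no other call of a member.

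Leaving out 1 library gave 1 to 5 members and 14 to 4467 genes over the 4 treatments, 0 to 4 members and 2 to 6262 genes without 5-FU, and 1 to 2 members and 3 to 219 genes given 5-FU. After 5-FU it gave 1 to 8 members and 139 to 6008 genes in KO, and 0 to 2 members and 0 to 382 genes in WT. It gave 0 to 3 members and 0 to 3645 genes for the genotype difference in the 5-FU effect, and 0 to 4 members and 0 to 7080 genes for BMX-001 alone. BMX-001 added to 5-FU gave 0 members throughout, with 0 to 1 genes in KO and 0 to 3 in WT, and within treatments 0 to 7 members were called. The highest counts over the 4 treatments, without 5-FU, after 5-FU in KO, for the genotype difference in the 5-FU effect and for BMX-001 alone came without KO BMX-001 replicate 2, where the deviating library alone stood for its group and was assumed to vary like the others. Members whose fold change was below its own SE were not followed through the alternatives. Depth limits Sod3, with 3 to 22 counts per library.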
